A study of Mus musculus with 24 samples.

Results

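The 9 genes described here mark the projection neurons of the striatum or set how they answer dopamine, and they were taken by name from the 25793 gene symbols of the deposited count tables. They are the receptor genes *Drd1a* (the older symbol of *Drd1*), *Drd2*, *Adora2a* and *Gpr6*, the signalling genes *Ppp1r1b*, *Rgs9* and *Pde10a*, and the neuropeptide genes *Penk* and *Tac1*. All 9 of 9 were found in both tables. The libraries came from hippocampus (HC) and cerebellum (CB), not from striatum, so the genes were followed library by library in 24 libraries. Mice homozygous for the reciprocal translocation T(5G2;8A1)GSO (16GsoT/T), which breaks chromosome 5 between *Auts2* and *Galnt17*, were compared with wild-type (WT) mice at postnatal day 14 (P14) and day 35 (P35), with 3 male mice per genotype, region and age. The labels give C57BL/6 as the strain, 9 of the 12 WT libraries (not those of P14 CB) have B6C3 in their names, and the study's methods give a C57BL/6 by C3H/He background. 16GsoT/T animals were bred from homozygous parents, so the WT mice were not their littermates, and both genotypes were untreated. The study considered genes of dopaminergic transmission, *Drd2* among them, in HC at P14, and the comparison here asks whether the 9 genes differ between genotypes, library by library.

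Most striatal neurons are GABAergic projection neurons of 2 types. Those of the direct pathway carry the D1 dopamine receptor, encoded by *Drd1a*, and make substance P from *Tac1* and dynorphin from *Pdyn*. Those of the indirect pathway carry the D2 receptor, encoded by *Drd2*, with an adenosine receptor encoded by *Adora2a* and the orphan receptor *Gpr6*, and make enkephalin from *Penk*. The D1 and *Adora2a* receptors raise cyclic AMP and the D2 receptor lowers it. Both types hold DARPP-32, the phosphoprotein encoded by *Ppp1r1b* that inhibits protein phosphatase 1, the G protein regulator RGS9, and the phosphodiesterase PDE10A, which degrades cyclic nucleotides. Several of these genes are also used outside the striatum: *Drd2* in hippocampal mossy cells and interneurons, *Ppp1r1b* in Purkinje cells, and *Penk* and *Tac1* in scattered neurons of many regions.

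In NCBIM37 with the GENCODE vM1 annotation, *Drd2* lies on chromosome 9 from 49148732 to 49216282, *Adora2a* on chromosome 10 from 74779688 to 74797533, *Pde10a* on chromosome 17 from 8718237 to 9179513, *Ppp1r1b* on chromosome 11 from 98209718 to 98219110 and *Tac1* on chromosome 6 from 7505071 to 7512973, all on the plus strand. On the minus strand lie *Drd1a* on chromosome 13 from 54146555 to 54151027, *Gpr6* on chromosome 10 from 40789795 to 40792091, *Penk* on chromosome 4 from 4060678 to 4065966 and *Rgs9* on chromosome 11 from 109086669 to 109159443. None of the 9 lies on chromosome 5 or 8, where the translocation breaks. The exons of *Penk* overlap those of A830012C17Rik and the exons of *Ppp1r1b* overlap those of 1700003D09Rik, each on the opposite strand. The strand option of the counting is not given in the sources used here, so reads of these pairs could be mixed.

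The promoters of *Drd1* and *Drd2*, the receptor genes of the direct and indirect pathway, and of *Tac1*, whose level went apart from the rest of the genes in one library, are shown as the 250 bases before the start of the gene, 5′ to 3′ on the strand of the gene. The sequences are from RefSeq with GRCm38.p6 coordinates, a later build than that of the counts, and 6 of the 9 genes were matched. Capitals mark TGACG on either strand (CGTCA where it is on the other strand), the core of the cyclic AMP response element. Of 32851 promoters of this length, 17.77% hold it.
Drd1, chr13:54055659-54055908, minus strand: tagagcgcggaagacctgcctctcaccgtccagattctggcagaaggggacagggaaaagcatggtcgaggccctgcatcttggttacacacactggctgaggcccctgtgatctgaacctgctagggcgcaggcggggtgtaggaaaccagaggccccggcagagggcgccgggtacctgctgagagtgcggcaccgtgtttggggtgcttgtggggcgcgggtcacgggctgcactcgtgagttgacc
Drd2, chr9:49340153-49340402, plus strand: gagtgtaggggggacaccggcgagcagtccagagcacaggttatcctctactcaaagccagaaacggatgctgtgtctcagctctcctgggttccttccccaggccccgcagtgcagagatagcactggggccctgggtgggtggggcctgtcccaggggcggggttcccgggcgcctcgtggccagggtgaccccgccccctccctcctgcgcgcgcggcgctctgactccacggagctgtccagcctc
Tac1, chr6:7554811-7555060, plus strand: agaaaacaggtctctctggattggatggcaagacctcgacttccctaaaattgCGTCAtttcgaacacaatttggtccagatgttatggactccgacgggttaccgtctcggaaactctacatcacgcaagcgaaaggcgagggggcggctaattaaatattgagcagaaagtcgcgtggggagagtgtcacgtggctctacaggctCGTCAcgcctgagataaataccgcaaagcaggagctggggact
The *Tac1* window held the 5 letters 2 times, both on the minus strand. The *Gpr6* window, not shown, held them 1 time on each strand at overlapping positions, within TGACGTCA. The windows of *Drd1*, *Drd2*, *Rgs9* and *Pde10a* did not hold them. No binding was measured in these samples.

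Reads on genes ranged from 10572358 to 13245150 in P14 HC, from 2563968 to 4127478 in P35 HC, from 22893603 to 40564789 in P14 CB and from 5140843 to 7974640 in P35 CB, so single reads weigh most in P35 HC. Levels are given as CPM, the counts scaled to each library's total with TMM factors set within each region and age. *Galnt17*, listed as *Wbscr17*, had a lower mean in 16GsoT/T in all 4 comparisons, from 40.9 ± 1.85 to 19.8 ± 2.09 CPM in P14 CB (SD, n = 3 per genotype, adjusted p = 5.6e-04) and from 185 ± 25.4 to 121 ± 16.1 CPM in P35 HC (adjusted p = 0.12). *Auts2* was lower in 16GsoT/T in P14 HC by 0.51 on the log2 scale (SE 0.083, adjusted p = 0.042) and higher in P35 CB by 0.46 (SE 0.070, adjusted p = 3.3e-04). Its difference was -0.13 (adjusted p = 0.69) in P14 CB and -0.04 (adjusted p = 0.97) in P35 HC. Throughout, a gene was called changed when edgeR's quasi-likelihood test gave an adjusted p (Benjamini-Hochberg, over all genes tested) no higher than 0.05, and fold changes are 16GsoT/T against WT on the log2 scale.

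The HC libraries N4 and N10 (both WT) and B10 (16GsoT/T) stood apart. In N4 of P14 HC the 9 genes summed to 709 CPM, against 179 and 168 CPM in N5 and N6 and 153 to 197 CPM in the 3 16GsoT/T libraries. In N10 of P35 HC the 9 genes summed to 210 CPM, inside the range of 165 to 222 CPM of the 6 libraries of that age, but 10 thalamic marker genes summed to 287 CPM against 72.7 to 106 CPM in the rest. B10 of P35 HC was over 2 times above both B11 and B12 for 5 of 11 cerebellar marker genes tested (*Pcp2*, *Car8*, *Zic1*, *Cbln1* and *Slc1a6*), and the 15 genes of that list summed to 834 CPM in B10 against 606 to 719 CPM in the other 5 libraries. The granule cell genes *Gabra6* and *Cbln3* had 116 and 178 reads in B10, 15 and 14 in N10, and at most 3 in the other 4 libraries. By their labels, the WT libraries of P14 HC were sequenced on one lane and the 16GsoT/T libraries on another, and the effects of lane and genotype cannot be told apart in that comparison. Among the P35 HC libraries, N10 and the 16GsoT/T libraries carry a single index and neighbouring numbers, while W481 and W483 carry dual indices and are treated as another batch.

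*Adora2a*, the adenosine receptor gene, showed the widest gap between N4 and its group. It had 444 reads in N4 against 40 in N5 and 38 in N6, or 42.7, 3.64 and 3.49 CPM, and 6.30, 6.31 and 3.39 CPM in the 16GsoT/T libraries A13, A14 and A18. N4 was the one high library, at 11.97 times the mean of N5 and N6, the largest such ratio of all 15227 genes tested in P14 HC. The fitted fold change of *Adora2a* was -1.63 (SE 0.883, adjusted p = 0.37) with all 6 libraries and 0.58 (SE 0.307, adjusted p = 0.39) without N4, so that the sign turned with this library.

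*Drd2* followed with 131 reads in N4, 32 in N5 and 19 in N6, which is 12.6, 2.91 and 1.75 CPM, and with 2.02, 2.34 and 1.81 CPM in A13, A14 and A18. The 16GsoT/T libraries lay between N5 and N6, and the groups overlapped. The difference was -1.47 (SE 0.654, adjusted p = 0.29) with all libraries and -0.18 (SE 0.308, adjusted p = 0.81) without N4. WT mean *Drd2* was 5.75 ± 5.96 CPM (SD, n = 3), an SD larger than the mean, and 2.33 CPM over N5 and N6.

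*Drd1a* had 142 reads in N4, 23 in N5 and 33 in N6, or 13.7, 2.09 and 3.03 CPM. A13, A14 and A18 had 4.92, 4.28 and 4.06 CPM, above N5 and N6 and below N4. The difference of -0.49 (SE 0.592, adjusted p = 0.71) became 0.78 (SE 0.242, unadjusted p = 0.014, adjusted p = 0.20) without N4. *Gpr6*, the orphan receptor gene, was rare, with 64, 21 and 44 reads in N4, N5 and N6 and 20, 29 and 44 reads in A13, A14 and A18. Its difference was -0.74 (SE 0.417, adjusted p = 0.39) with N4 and -0.31 (SE 0.412, adjusted p = 0.75) without it.

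Among the signalling genes, *Ppp1r1b* moved with the receptors. Its level was 254 CPM in N4 (2643 reads), 34.0 CPM in N5 and 33.7 CPM in N6, and 39.4, 42.1 and 29.9 CPM in A13, A14 and A18. N5 and N6 sat inside the 16GsoT/T range. The difference was -1.53 (SE 0.714, adjusted p = 0.31) with N4 and 0.13 (SE 0.145, adjusted p = 0.69) without. *Rgs9* had 85.1 CPM in N4, 20.3 and 19.9 CPM in N5 and N6, and 15.7 to 22.2 CPM in 16GsoT/T, and its difference went from -1.11 (SE 0.522, adjusted p = 0.31) to -0.05 (SE 0.153, adjusted p = 0.89) without N4. *Pde10a* stood least apart of the 3 in N4, at 2.17 times the mean of N5 and N6. It had 166, 83.4 and 69.7 CPM in N4, N5 and N6 and 72.6 to 77.3 CPM in 16GsoT/T, with a difference of -0.50 (SE 0.273, adjusted p = 0.37) that was -0.03 (SE 0.0867, adjusted p = 0.89) without N4.

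The neuropeptide genes went apart from each other in N4. *Penk*, of the indirect pathway, had 108 CPM in N4 (1128 reads), 14.9 and 15.6 CPM in N5 and N6, and 21.7, 19.1 and 9.86 CPM in A13, A14 and A18. *Tac1*, of the direct pathway, had 208, 176 and 187 reads in N4, N5 and N6 and 308, 271 and 164 reads in A13, A14 and A18, or 16.0 to 20 CPM in WT against 12.3 to 24.9 CPM, so that N4 was within the 16GsoT/T range. The reads of *Penk* were 5.42 times those of *Tac1* in N4 and 0.799 to 0.932 times in the other 5 libraries of P14 HC. The differences were -1.45 (SE 0.726, adjusted p = 0.34) for *Penk* and 0.13 (SE 0.226, adjusted p = 0.81) for *Tac1*, and 0.14 (SE 0.299, adjusted p = 0.85) and 0.22 (SE 0.267, adjusted p = 0.71) without N4.

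**Figure D1:**
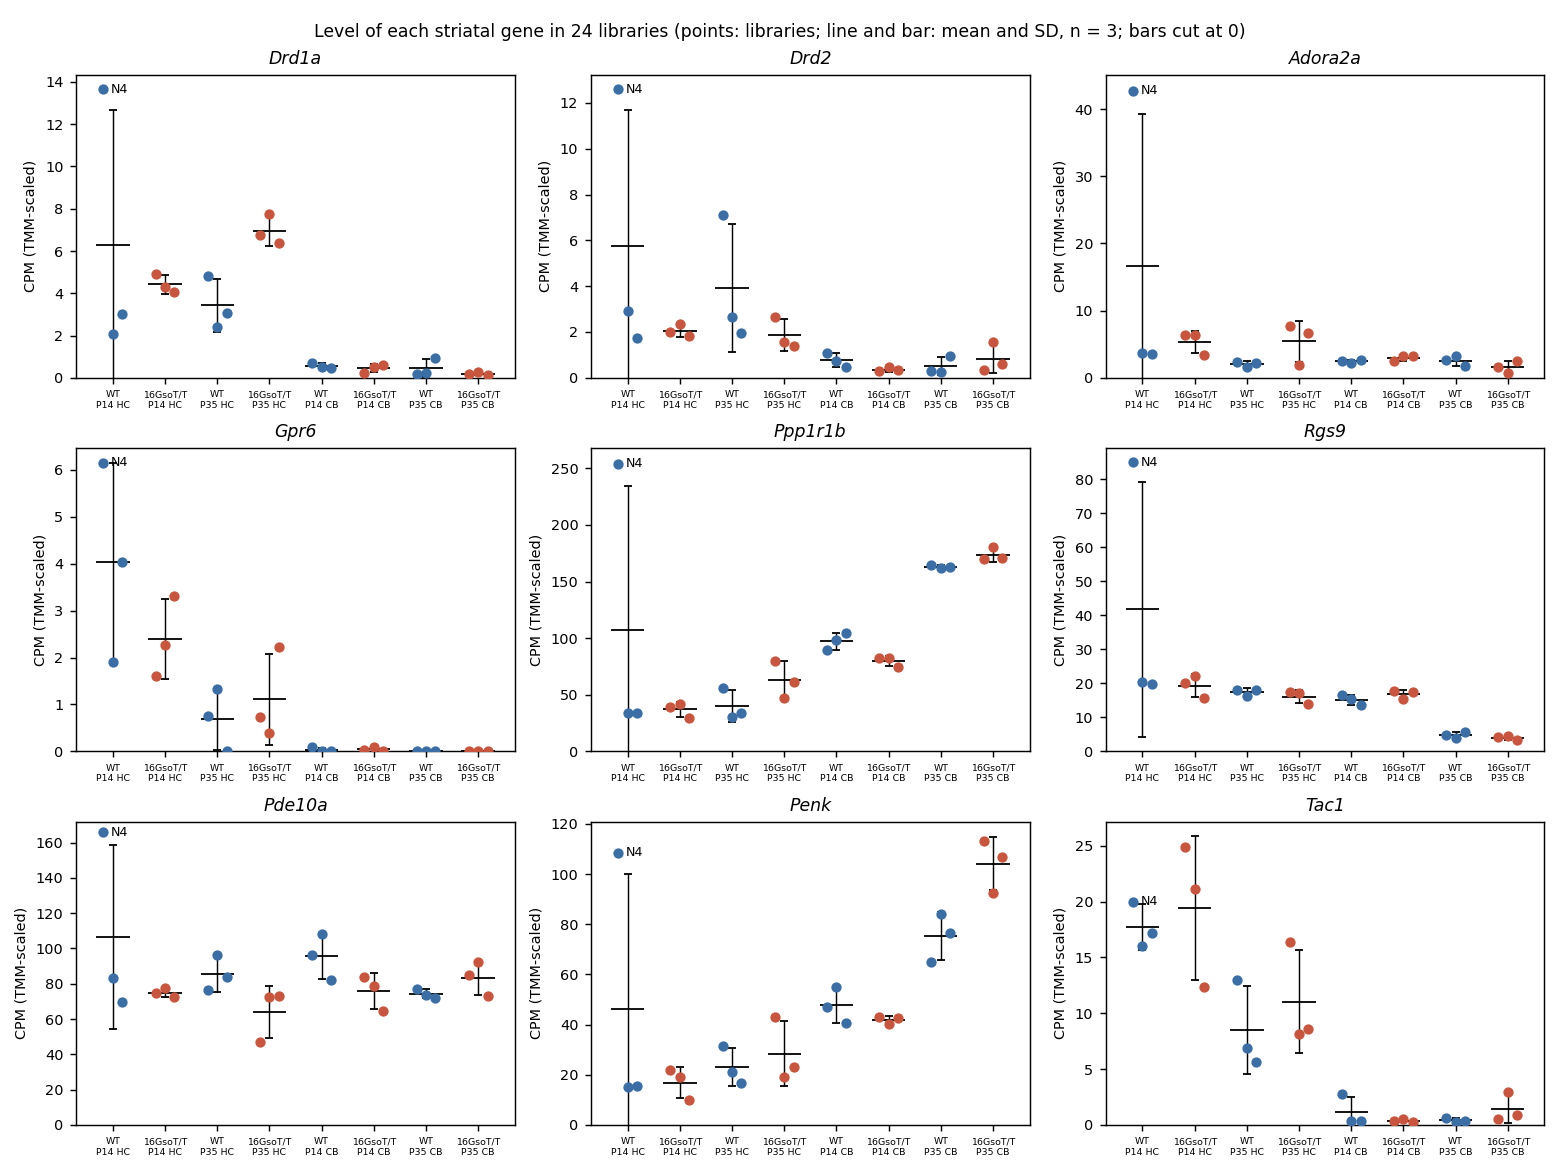
TMM-scaled CPM (linear axes from 0) of the 9 genes in all 24 libraries, one panel per gene, with WT libraries as blue points, 16GsoT/T libraries as red points, and a line and bar for the mean and SD of the 3 libraries of a group (bars are cut at 0). N4 is the highest P14 HC library for 8 of the 9 genes and lies inside the 16GsoT/T range for *Tac1*, and *Ppp1r1b* and *Penk* are highest outside N4 in P35 CB.

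In P14 HC, 8 of 9 genes had a lower fitted mean in 16GsoT/T and 1 a higher one with all libraries, with a median of -1.11 beside 0.00 for all genes tested, and 0 of 9 were called, where 0.814% of all genes were. None had an unadjusted p under 0.05 in edgeR, and DESeq2 called 0 of 9 as well (it gave no adjusted p for *Adora2a*). Without N4, 5 of 9 were higher and 4 lower, the median was 0.13, and again 0 of 9 were called, with 0.116% of all genes. The groups overlapped for 9 of 9 genes with all libraries, while 23.8% of all genes had groups that did not overlap. Leaving out any one of the other 5 libraries kept all 8 negative differences negative, and *Tac1* turned to -0.09 without A13. Choroid plexus genes varied from library to library, with a sum of 449, 953 and 117 CPM in N4, N5 and N6 and 1118, 1861 and 101 CPM in A13, A14 and A18, and of these 13 genes 13 had a higher fitted mean in 16GsoT/T (median 0.99, and 0.89 without N4), with 0 called. In whole tissue, fewer cells of a type and less RNA per cell cannot be told apart.

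**Figure D2:**
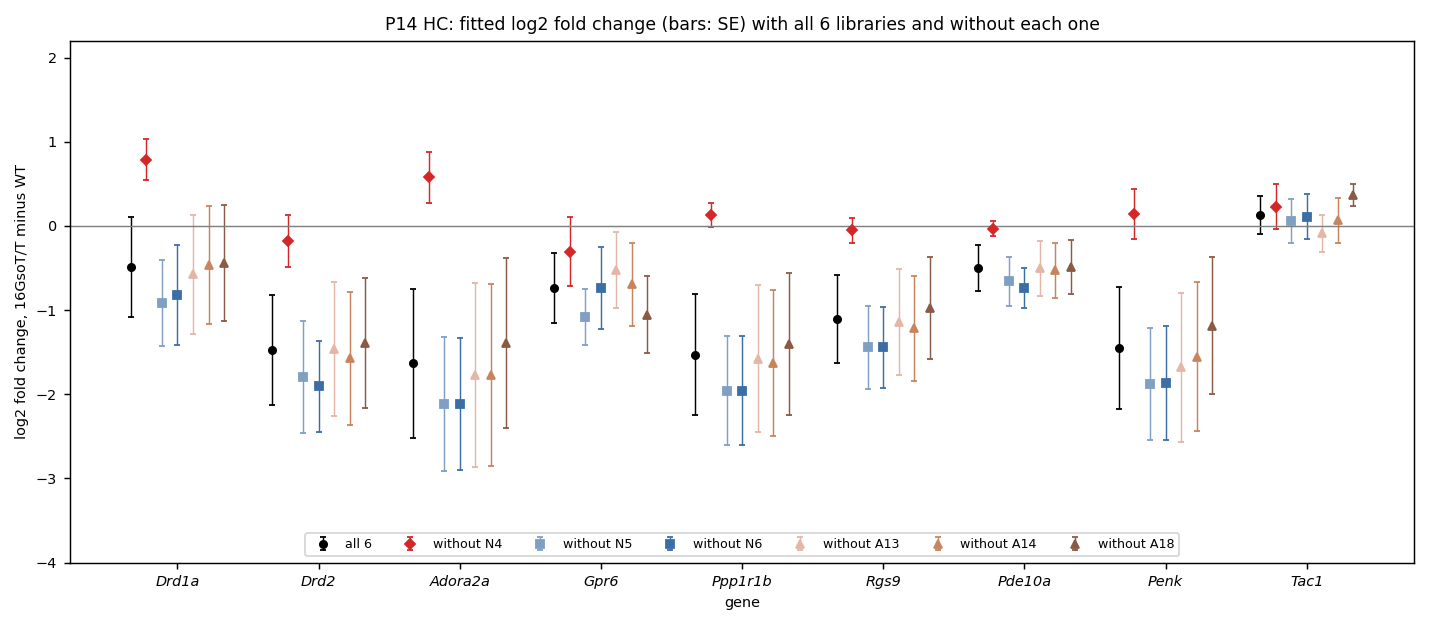
Fitted log2 fold change of 16GsoT/T against WT in P14 HC (vertical axis, bars are SE) for the 9 genes, with all 6 libraries (black circles) and without each library in turn (red diamonds without N4, blue squares without N5 or N6, brown triangles without a 16GsoT/T library). Among the fits shown, the red diamonds alone lie near or above 0 for *Drd2*, *Adora2a*, *Ppp1r1b*, *Rgs9*, *Pde10a* and *Penk*, reaching 0.58 for *Adora2a* and -0.18 for *Drd2*.

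Measured against the other libraries of its own group, N4 was over 2 times as high as both N5 and N6 for 6 of the 9 genes (*Drd1a*, *Drd2*, *Adora2a*, *Ppp1r1b*, *Penk* and *Rgs9*), where 0.263% of the 15227 genes tested met the same rule. By the ratio to the mean of N5 and N6, *Adora2a* ranked 1, *Ppp1r1b* 4, *Penk* 6, *Drd2* 8, *Drd1a* 10 and *Rgs9* 11 among these genes, *Pde10a* 51, *Gpr6* 67 and *Tac1* 1534. Other genes ranked above *Rgs9* included *Scn4b*, *Six3* and *Tmem90a*, all on a list of 26 other striatal genes, and *Avp*, the vasopressin gene, which had 49 reads in N4 against 11 and 7. These 4, and the genes outside the 9 named for N4, N10 and B10, were chosen after their values were seen. In the 23 other libraries the rule was met 1 time among genes with enough reads to test, by *Tac1* in library 1 of P14 CB. Among those with too few, it was also met by *Drd2* in N10 and C20 (28 and 11 reads) and *Tac1* in C20 (21 reads), and otherwise at 8 reads or fewer. The summed level of the 9 genes in N4 was 4.08 times the mean of N5 and N6, and in the 21 libraries other than these 3 it was 0.779 to 1.22 times that of the other 2 of the group.

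**Figure D3:**
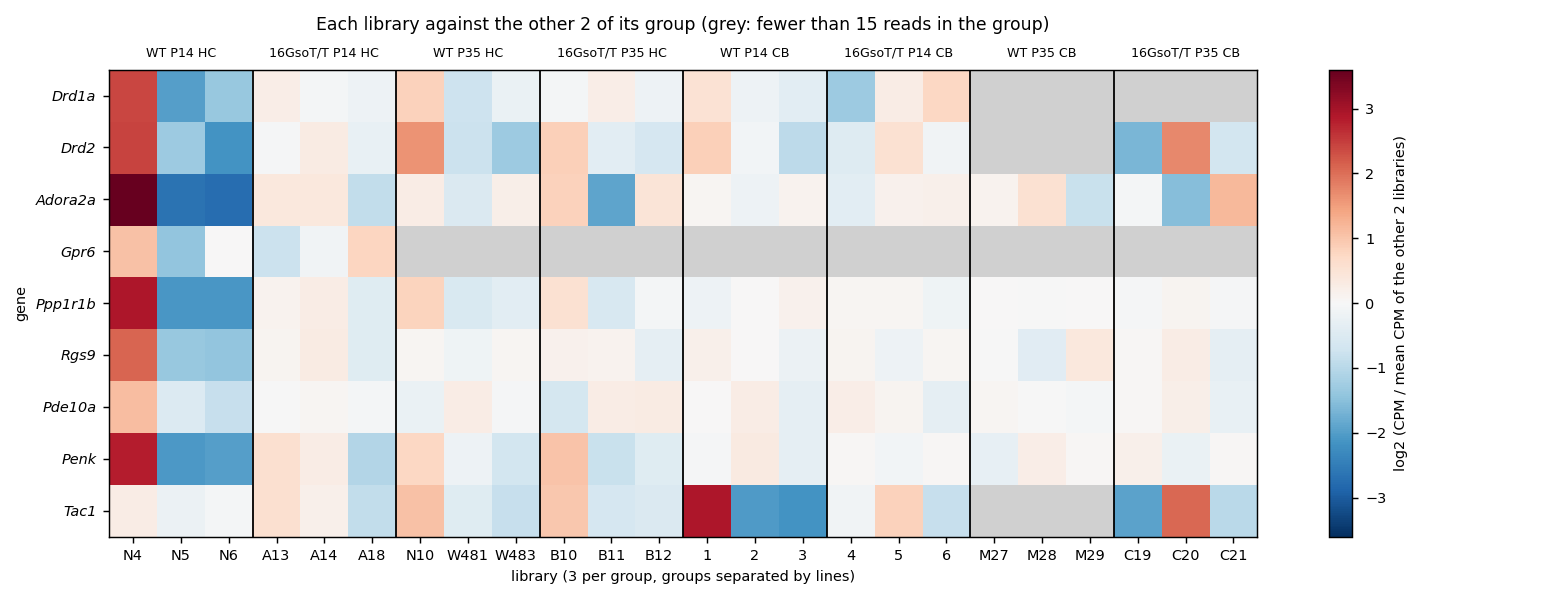
Log2 ratio of each library's CPM to the mean CPM of the other 2 libraries of its group (colour, red above and blue below), for 9 genes (rows) in 24 libraries (columns, 3 per group), with grey where a gene had fewer than 15 reads in a group. N4 is red for 8 of 9 genes and near 0 for *Tac1*. N5 and N6 are blue because N4 is in their comparison, except near 0 for *Tac1* in both and for *Gpr6* in N6. Single red cells stand out for *Drd2* in N10, *Tac1* in library 1 and *Drd2* and *Tac1* in C20.

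The other striatal genes were not all high in N4. Of the 26 on the list, 11 had a ratio above 2 to the mean of N5 and N6 and 7 a ratio below 1.2. *Scn4b*, a sodium channel subunit gene, had 1050 reads in N4 against 110 and 119. *Six3* and *Isl1*, homeobox genes of striatal development, had 62 and 17 reads in N4 against 11 and 3 for *Six3* and 3 and 2 for *Isl1*. The dynorphin gene *Pdyn* and the muscarinic receptor gene *Chrm4*, both of the direct pathway, were 1.11 and 1.06 times the mean of N5 and N6. By these ratios N4 was high for *Drd1a* and *Isl1* of the direct pathway, and near its group for *Tac1*, *Pdyn* and *Chrm4*. Base levels were unlike, with 176 and 187 reads of *Tac1* in N5 and N6 against 3 and 2 of *Isl1*. The ratios therefore do not compare the amounts of RNA added in N4.

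The summed level of these 26 genes was 2071 CPM in N4 and 1114 to 1155 CPM in the other 5 libraries of P14 HC. Of the 24 tested in P14 HC, 21 were lower and 3 higher in 16GsoT/T with all libraries (median -0.37) and 11 lower and 13 higher without N4 (median 0.01), with 0 called either way. In N4 the 10 thalamic genes summed to 109 CPM, inside the 87.2 to 148 CPM of the other 5 libraries, and the 9 cortical genes to 215 CPM, below their 230 to 377 CPM. N4 was the highest of the 6 for the 17 hippocampal genes, at 1413 against 1137 to 1340 CPM, and for the 9 hypothalamic genes, at 11.2 against 3.15 to 7.48 CPM. Among the hippocampal genes, *Wfs1* was 2.14 times the mean of N5 and N6 and was the one gene of its list over 2 times above both. The part of tissue next to HC in the levels of N4 was not tested. Without N4 the fitted differences of 7 of the 9 genes were smaller in size (0.58 or less), and those of *Drd1a* (0.78) and *Tac1* (0.22) were larger.

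**Figure D4:**
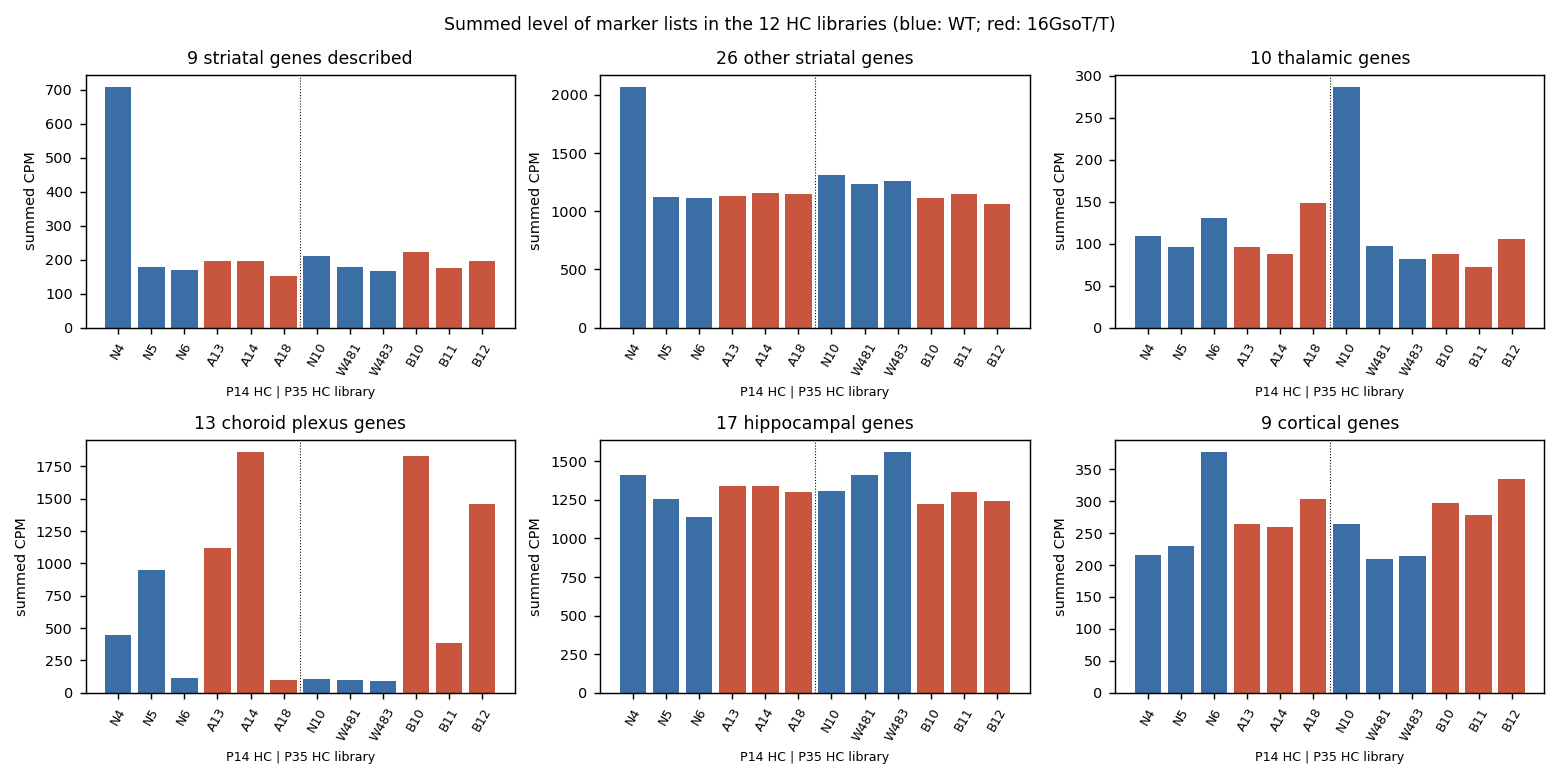
Summed CPM (bars from 0) of the 9 genes and of 5 marker lists in the 12 HC libraries, P14 to the left and P35 to the right of the dotted line, WT in blue and 16GsoT/T in red. N4 stands out for the 9 genes (709 CPM) and for the 26 other striatal genes (2071 CPM), N10 for the 10 thalamic genes (287 CPM), and the choroid plexus list differs by library in both ages.

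The genes listed for dopamine neurons, with *Dbh* of noradrenaline synthesis among them, did not all go the same way in N4. Over the 6 tested, the median ratio of N4 to the mean of N5 and N6 was 0.96. *Aldh1a1* was highest in N4, at 77.5 CPM against 48.0 and 62.8 CPM in N5 and N6 and 41.9 to 63.3 CPM in 16GsoT/T. With it, the list summed to 98.2 CPM in N4, against 61.4 to 93.6 CPM in 16GsoT/T. The dopamine transporter gene *Slc6a3* had 5 reads in N4, 14 in N5 and 56 in N6, and 17 to 61 reads in 16GsoT/T. Of 6 genes of this list tested in P14 HC, 4 were higher and 2 (*Aldh1a1* and *Dbh*) lower in 16GsoT/T, and 0 were called. Of the other dopamine receptor genes, *Drd5* was the one with enough reads to test in HC (93, 71 and 49 reads in N4, N5 and N6). It did not pass the test in P14 HC (-0.10, SE 0.353, adjusted p = 0.91), and *Drd3* and *Drd4* had at most 7 reads in each HC library. *Maoa* and *Maob*, the monoamine oxidase genes, did not pass the test in P14 HC either.

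Over the 12 HC libraries, with each group's mean taken away, Pearson's r over the 36 pairs of the 9 genes ran from -0.19 to 0.96 (median 0.65). Without N4 it ran from -0.62 to 0.97 (median 0.31). *Penk* and *Tac1* had r = 0.63 with N4 and 0.97 without it. These are descriptions over libraries that share N4 and their lanes. The 5 genes closest to the mean of the 9, among 14572 others, were *Cd4* (r = 0.963), *Tmem90a* (0.955), *Tmem50a* (0.921), *Sar1b* (0.918) and *Slc39a1* (0.914). *Cd4* had 9.71 CPM in N4 and 0.182 to 1.52 CPM in the other 11 HC libraries. The 5 closest to *Drd2* were *Sar1b* (0.966), *Zfp60* (0.947), *Yipf1* (0.940), *Adcy5* (0.934), which encodes the main striatal adenylyl cyclase, and *Gnal* (0.924), which encodes its G protein. Without N4 these 5 had r from 0.79 to 0.91.

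In P35 HC, of the 6 genes with enough reads to test, 4 were higher and 2 lower in 16GsoT/T (median 0.36 beside -0.01 for all genes), and 0 were called, where 0.135% of all genes were. Of these 6, 3 had an unadjusted p under 0.05 in edgeR, a level whose share over all genes is not given here, and DESeq2 called 0 of 9. Without N10, 7 genes could be tested, 5 higher and 2 lower, with a median of 0.86 and 1 called (*Ppp1r1b*). Among all genes, that fit called 139, where the fit with all libraries called 18. Without B10, 2 of 6 were higher and 4 lower, with a median of -0.07 and 0 called, 1 with an unadjusted p under 0.05. For 2 of the 6 with all libraries, *Drd1a* and *Pde10a*, the groups did not overlap, as for 13.1% of all genes.

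*Drd1a* had 28, 20 and 23 reads in B10, B11 and B12 (16GsoT/T) and 19, 9 and 11 in N10, W481 and W483 (WT). That is 6.74, 7.77 and 6.38 CPM against 4.83, 2.38 and 3.08 CPM, higher in 3 of 3 16GsoT/T libraries. The difference was 0.998 (SE 0.338, unadjusted p = 0.010, adjusted p = 0.39), and 0.51 (SE 0.448) with the library batch in the fit, where N10 is the only WT library of the batch of the 16GsoT/T libraries. *Ppp1r1b* had 80.2, 47.4 and 61.3 CPM in 16GsoT/T and 56.2, 30.4 and 33.6 CPM in WT, with groups that overlapped through N10. Its difference of 0.66 (SE 0.224, adjusted p = 0.39) passed the test without N10 (0.99, SE 0.199, adjusted p = 0.027) was 0.46 (SE 0.231, adjusted p = 0.80) without B10, and was 0.17 (SE 0.233) with batch in the fit.

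*Drd2* was too rare to test in P35 HC, with 11, 4 and 5 reads in 16GsoT/T and 28, 10 and 7 in WT. N10 was the high library, with 7.12 CPM against 2.64 and 1.96 CPM in W481 and W483 and 1.39 to 2.65 CPM in 16GsoT/T. N10 also held the most reads of *Six3* (29 against 7 and 2 in W481 and W483) and *Isl1* (13 against 2 and 0). Of 20 other striatal genes tested, 2 (*Sp9* and *Chrm4*) were over 2 times above both W481 and W483 in N10, and the median ratio to their mean was 1.12, so most of that list was near its group. N10 was high for thalamic genes too, with 6 of 8 tested (*Tcf7l2*, *Prkcd*, *Ramp3*, *Slc17a6*, *Rgs16* and *Synpo2*) over 2 times above both W481 and W483; their part in the level of *Drd2* was not tested. In N10, unlike N4, *Adora2a* had 9 reads against 6 and 8, *Ppp1r1b* was 1.76 times and *Rgs9* 1.04 times the mean of the other 2 WT libraries.

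*Adora2a* had 32, 5 and 24 reads in B10, B11 and B12 and 9, 6 and 8 in N10, W481 and W483, so that 2 of 3 16GsoT/T libraries were above all WT libraries and B11 was not. *Pde10a* had 47.2, 72.3 and 73.0 CPM in 16GsoT/T and 76.2, 96.3 and 83.9 CPM in WT, lower in 3 of 3 (-0.42, SE 0.163, unadjusted p = 0.021, adjusted p = 0.46). *Rgs9* lay between 13.9 and 18.2 CPM in all 6 libraries (-0.13, SE 0.188, adjusted p = 0.92). B10 had the highest level of *Penk* (43.1 CPM) and *Tac1* (16.4 CPM) of the 6, and the signs of both genes turned without it. *Gpr6* had at most 8 reads in each P35 HC library, and 3 reads in one of these 6 libraries correspond to 0.727 to 1.17 CPM, a limit of counting error only.

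The 16GsoT/T libraries of P35 HC held more choroid plexus RNA by the 13 genes of that list, with a sum of 382 to 1828 CPM against 89.2 to 103 CPM in WT. Of the 11 tested, 7 were called higher and 0 lower, where 0.135% of all genes were called. They were led by *Kcnj13* (4.28), *Ttr* (4.26), *Folr1* (4.02), *Slc4a5* (3.93), *Kcne2* (2.93) and *Sostdc1* (2.88), all on the log2 scale. Its part in the levels of the 9 genes was not tested. B10, highest of the 6 libraries for the choroid plexus and cerebellar lists, was also highest for *Penk*, *Tac1*, *Ppp1r1b* and *Adora2a*. It was lowest of the 6 for *Pde10a* (47.2 CPM) and not the highest for *Drd1a*, *Drd2*, *Rgs9* and *Gpr6*. B12, second for the choroid plexus list, was second for *Ppp1r1b* and *Adora2a* and below N10 for *Penk* and *Tac1*. The part of cerebellar RNA in the levels of B10 was not tested either.

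The 9 genes had very different levels in CB. Per kilobase of exon, *Ppp1r1b* was the highest of them in WT P35 CB at 55.7 ± 0.374 CPM per kilobase (SD, n = 3), followed by *Penk* at 46.0 ± 5.85 and *Pde10a* at 5.90 ± 0.205, while *Drd1a* stood at 0.128 ± 0.123 and *Gpr6* was not detected. In WT P35 HC the order began with *Penk* at 14.2 ± 4.63 CPM per kilobase and *Ppp1r1b* at 13.7 ± 4.797, which did not differ beyond their spread, then *Tac1* at 8.20 ± 3.81 and *Pde10a* at 6.79 ± 0.802. *Ppp1r1b* was 4.07 times and *Penk* 3.25 times as high in CB as in HC in WT at P35 by mean CPM, with no overlap of libraries. *Tac1* went the other way, 20.1 times as high in HC, and *Drd1a* 7.58 times. Levels of different regions come from separate libraries on separate lanes and were not tested against each other here.

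Across the 8 groups, *Ppp1r1b* was highest in 16GsoT/T P35 CB (169 to 181 CPM), then WT P35 CB (162 to 164 CPM), which did not overlap. *Penk* was highest in the same groups, in the same order and without overlap. For *Drd2* and *Adora2a* the highest mean was that of WT P14 HC, which rests on N4 and overlapped the next group in the order. For *Drd1a* the highest mean was that of 16GsoT/T P35 HC, and for *Tac1* that of 16GsoT/T P14 HC, and neither was apart from the next group. *Drd1a* and *Tac1* were higher in all HC libraries than in any CB library.

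In P14 CB, 8 of the 9 genes were tested, 6 lower and 2 higher in 16GsoT/T (median -0.31 beside 0.00 for all genes), and 0 were called, where 0.506% of all genes were. Of the 8, 4 had an unadjusted p under 0.05 in edgeR, a level whose share over all genes is not given here, and DESeq2 called 0 of 9. *Drd2* had 38, 25 and 11 reads in WT libraries 1, 2 and 3 and 10, 15 and 14 in 16GsoT/T libraries 4, 5 and 6, in libraries of unequal depth, which is 1.09, 0.725 and 0.476 CPM against 0.286, 0.453 and 0.336 CPM. It was lower in 3 of 3 16GsoT/T libraries without overlap, by the smallest margin between 0.476 and 0.453 CPM. The difference of -1.12 (SE 0.363, unadjusted p = 0.011, adjusted p = 0.34) lay between -1.34 and -0.77 with each library left out, with adjusted p from 0.33 to 0.79.

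*Ppp1r1b* was the other gene of the 9 with groups that did not overlap in P14 CB, 2 of 8 where 13.6% of all genes had such groups. It had 89.4, 98.4 and 104 CPM in WT and 82.8, 82.3 and 74.6 CPM in 16GsoT/T (-0.28, SE 0.0742, unadjusted p = 0.0035, adjusted p = 0.20). *Tac1* had 95 reads in WT library 1 and 8 to 17 in the other 5. Library 1, the highest of the 6 for *Drd2*, also had 101 reads of *Dbh* and 122 of *Slc18a2*, both on the list of dopamine neuron genes. The other 5 had 0 to 14 reads of *Dbh* and 1 to 17 of *Slc18a2*, and both genes were picked after their values were seen. *Dbh*, whose enzyme turns dopamine into noradrenaline, is not particular to dopamine neurons. On the same list, *Th* had 68 reads in library 1 against 14 to 52 in the other 5, and *Slc6a3* had 5 against 1 to 5. What sets library 1 apart, and its part in the *Drd2* difference, was not tested. The fitted difference of *Tac1* was -1.72 (SE 0.743, adjusted p = 0.54) with library 1, and leaving out each library in turn gave -2.14 to -0.01. *Drd1a* (8 to 26 reads) and *Adora2a* (60 to 134 reads) had groups that overlapped, and *Gpr6* had at most 3 reads.

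In P35 CB, *Penk* was called higher in 16GsoT/T, the one call among the 9 genes in the 4 comparisons, in a comparison where 35.3% of all genes were called. It had 113, 92.4 and 107 CPM in C19, C20 and C21 and 65.0, 84.0 and 76.6 CPM in M27, M28 and M29, higher in 3 of 3. The difference was 0.46 (SE 0.0999, adjusted p = 0.0035), 0.37 to 0.56 with each library left out (adjusted p from 0.0014 to 0.018), and 0.47 (adjusted p = 0.079) in one fit of the 12 P35 libraries, where it was no longer called. Beside it, 8 of 15 cerebellar marker genes were called higher and 1 lower, and 3 of 12 choroid plexus genes were called lower, with sums of 24.2 to 2211 CPM in WT and 144 to 397 CPM in 16GsoT/T, and their part in the level of *Penk* was not tested. Reads on genes made up 37.6 to 37.7% of the counted reads in the WT libraries and 42.3 to 42.4% in the 16GsoT/T libraries. This difference follows genotype, so its effect and that of genotype cannot be told apart in P35 CB. *Ppp1r1b* and *Penk* were 2 of the 5 tested genes without overlap of the groups, against 47.3% of all genes. *Ppp1r1b* was not called, at 169, 181 and 171 CPM against 164, 162 and 163 CPM (0.09, SE 0.0570, adjusted p = 0.25). *Pde10a* (0.17, SE 0.0865, adjusted p = 0.16) passed the test only without C21 (0.26, adjusted p = 0.035).

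The receptor genes were near the limit of detection in P35 CB. *Drd1a* had 1 to 5 reads per library, *Gpr6* had 0 in all 6 libraries, which allows up to 3 reads or 0.376 to 0.584 CPM per library, and *Adora2a* had 5 to 26 reads (-0.71, SE 0.418, adjusted p = 0.21). *Drd2* and *Tac1* were highest in C20, with 11 and 21 reads against 2 to 5 and 2 to 6 in the other 5 libraries. With no filter on low counts *Tac1* was called (1.84, SE 0.659, adjusted p = 0.036), a value that rests on C20. Of the 17 other striatal genes tested, 1 was called, where 35.3% of all genes were. It was *Pde1b*, a calcium-dependent phosphodiesterase gene (0.58, SE 0.119, adjusted p = 0.0026). In P14 CB 1 of 20, *Pde7b*, was called lower (-0.62, SE 0.101, adjusted p = 0.035), where 0.506% of all genes were called.

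The difference between genotypes was set against age and region in fits of 12 libraries. Between P14 and P35 HC, 9 of 9 genes had a positive term (the difference at P35 minus that at P14), 0 were called where 0.00666% of all genes were, and *Adora2a* went from 3.13 (SE 1.38, adjusted p = 0.42) to 0.91 (SE 0.598, adjusted p = 0.60) and *Drd2* from 0.43 (SE 1.04) to -0.85 (SE 0.683) without N4. Of these 9, 2 had an unadjusted p under 0.05 in edgeR, a level whose share over all genes is not given here, and DESeq2 called 0. Between regions at P14, 0 of 9 were called, as were 0.0% of all genes by edgeR (1509 had an unadjusted p under 0.05, and DESeq2 called 89). Of the 9, 2 (*Rgs9* and *Tac1*) had an unadjusted p under 0.05 in edgeR, DESeq2 called 0, and the median term (CB minus HC) went from 0.90 to -0.31 without N4.

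In CB, the term for age was called for 3 of 7 genes tested, where 18.6% of all genes were called: *Penk* 0.65 (SE 0.156, adjusted p = 0.0093), *Ppp1r1b* 0.37 (SE 0.0949, adjusted p = 0.014) and *Pde10a* 0.50 (SE 0.160, adjusted p = 0.040). Each of these was lower in 16GsoT/T at P14 and higher at P35 by its fitted mean. *Penk* and *Ppp1r1b* were called with each of the 12 libraries left out (adjusted p up to 0.031 for *Penk* and 0.038 for *Ppp1r1b*), whereas *Pde10a* lost the call in 8 of the 12 such fits (adjusted p up to 0.11). Between regions at P35, *Adora2a* was called among 8 genes tested (-2.18, SE 0.675, adjusted p = 0.0496), where 9.61% of all genes were, and lost the call in 10 of 12 fits with a library left out (adjusted p up to 0.14). *Ppp1r1b* was called there only without N10 among the fits with a library of HC left out (-0.92, SE 0.196, adjusted p = 0.0072, against -0.58, SE 0.249, adjusted p = 0.15 with all libraries). The P14 and P35 CB libraries differ in lane and depth as well as in age. They also differ in the share of counted reads on genes, 64.8 to 68.1% at P14 and 37.6 to 42.4% at P35. In P14 HC this share was 40.7 to 42.3%, so the region terms at P14 have the same limit. The part of this difference in the terms was not tested.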

How the data were processed

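RNA was measured by sequencing in CB and HC of 3 male mice per genotype and age (24 libraries). The labels name a TruSeq Stranded mRNA kit, the study's methods a KAPA stranded kit. The submitters' processing notes name CASAVA 1.8.2, TopHat2 2.0.8, HTSeq 0.6.1, edgeR 3.2.4, R 3.0.0 and NCBIM37, and the authors deposited raw counts per gene, with 1 table per age. Annotation and strand option are not given in the sources used here. Depth per library, stated with the results, limits the precision of rare genes.

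The counts were fitted with edgeR 4.0.16 in R 4.3.3 (filterByExpr with at least 10 counts, TMM, quasi-likelihood test, Benjamini-Hochberg adjustment over all genes, called at an adjusted p of at most 0.05), each comparison on its 6 libraries and interactions on 12. Levels between genes are per kilobase of exon of GENCODE vM1. Named genes were all 9 members, Galnt17 and Auts2, and from each other list at most the 6 called genes with the largest fold change, with exceptions stated beside them, and 1 item is not reported here. The 5 genes nearest in pattern were ranked by Pearson's r over deviations of log2 CPM from group means, among genes with at least 10 reads per HC library on average. The members and the lists were chosen with earlier results of these data known. The alternatives were DESeq2 1.42.0, its size factors, no filter, 1 fit of the 12 libraries of an age, library batch in P35 HC, CPM without TMM, and each library left out. Nothing states how the replicate mice were drawn beyond being separate samples, so p-values measure the spread between these samples. The steps were tested on simulated data.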

Additional observations from a re-analysis of the deposited data

Results flagged for a closer look

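The difference between genotypes differed between ages or regions for 4 gene results by a test of the difference itself. For age in CB, 3 of 7 genes tested were called, where 18.6% of all genes were. For region at P35, 1 of 8 was called, where 9.61% of all genes were. In CB the term for age (the difference at P35 minus that at P14) was 0.65 for *Penk*, 0.37 for *Ppp1r1b* and 0.50 for *Pde10a*, and at P35 the term for region (CB minus HC) was -2.18 for *Adora2a*, all on the log2 scale. *Pde10a* and *Adora2a* lost the call in most fits that left out a library, while *Penk* and *Ppp1r1b* kept it in 12 of 12. The P14 and P35 CB libraries also differ in lane, depth and share of reads on genes. The term of *Adora2a* rests on 5 to 32 reads per library. Groups of 3 are too small for a test of single outlying libraries, so N4, N10 and B10 are described in the report by their values.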

How the results depend on the processing

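Counts of called genes moved by over 1.5 times in these cases, whose causes were not tested. In P14 HC, 124 genes were called, 397 with DESeq2, 326 with 1 fit of the 12 libraries of P14, and 13 to 114 with a library left out (18 without N4). In P14 CB, 81 became 234 with DESeq2 and 33 to 181 with a library left out. In P35 HC, 18 became 134 with no filter, 45 with DESeq2, 37 with 1 fit of the 12 libraries of P35, and 6 to 139 with a library left out (139 without N10). The age term in HC had 1 call, 27 with no filter, 115 with DESeq2 and 1 to 67 with a library left out (67 without N10). The region term had 0 calls at P14, 89 with DESeq2 and 0 to 22 with a library left out, and 1380 at P35 with 868 to 1427 with a library left out.

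Signs turned with 1 library left out for these genes. In P14 HC the fits ran from -0.914 to 0.785 for *Drd1a*, -2.118 to 0.576 for *Adora2a*, -1.96 to 0.132 for *Ppp1r1b* and -1.884 to 0.142 for *Penk*, each highest without N4, and from -0.088 (without A13) to 0.368 for *Tac1*. In P35 HC they ran from -0.123 to 0.615 for *Penk* and -0.013 to 0.857 for *Tac1*, lowest without B10 and highest without N10. Signs also turned for *Penk* (-0.12) and *Tac1* (-0.20) in P35 HC with library batch in the fit, where N10 is the lone WT library of its batch. Of the other single-gene results, 189 with a library left out and 133 with another setting kept direction and side of the threshold, while 18 and 2, in the same order, no longer passed it and 2 with a library left out newly did. The term of *Adora2a* for region at P35 missed the threshold with DESeq2 size factors (-2.15, adjusted p = 0.051). CPM without TMM scaling moved levels by at most 2.95%. No paired analysis was possible because the library names of the groups compared share no replicate numbers. Depth limits *Gpr6* outside P14 HC and the receptor genes in P35.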
